A study of Mus musculus with 7 samples.

Results

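The genes described here carry out or read the calcium signal that starts development at fertilisation. They were measured in oocytes bred to lack or to keep the H3K4 methyltransferase SETD1B. They were 10 genes chosen by name for their known roles: Itpr1, Trpm7, Cacna1h, Trpv3, Camk2g, Atp2a2, Stim1, Stim2, Orai1 and Ppp3ca. A gene was taken as the row that bore its name on the gene's own strand, which found 7 of the 10 among 33437 oocyte transcripts. The rows of Cacna1h, Atp2a2 and Orai1 bore the name of another gene on the opposite strand (Tpsg1, Anapc7 and Gm2479). These 3 were matched afterwards by strand and span to the gene annotation, and the counts below are given for the 7 and for all 10. The rule used the gene names and not the measured values, but the genes were proposed with earlier results of these data known.

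Transcription was measured in single germinal vesicle (GV) oocytes, which are fully grown and still arrested in meiotic prophase, with 1 oocyte per library. All females were C57BL6 by their labels (C57BL/6OlaHsd in the study's methods), 21 days old and Setd1b floxed/floxed, so the controls carried the floxed alleles too. The 4 Setd1b cKO libraries came from Gdf9-Cre positive females and the 3 Setd1b WT libraries from females labelled negative for Cre. Gdf9-Cre acts in oocytes from early folliculogenesis on, so by this cross the cKO oocytes are taken to have grown without intact Setd1b. A GV oocyte has not yet met a sperm. Neither the mother of each oocyte nor a batch is given in the labels, so the p-values measure the spread between these oocytes. The values are RPM, a read count divided by the library's mapped reads on a common scale.

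At fertilisation the sperm phospholipase makes IP3, and the IP3 receptor opens the endoplasmic reticulum (ER) store, giving repeated rises in calcium. Each rise empties the store in part, and influx through channels of the plasma membrane, followed by pumping into the ER, refills it and keeps the oscillations going. Calmodulin-dependent kinase II reads the rises and releases the egg from its arrest at the second metaphase. Mouse oocytes build up the messages and proteins of this system while they grow and mature.

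The libraries held between 8582493 and 12972366 mapped reads, so 1 read was worth 0.0771 to 0.117 RPM and 3 reads, taken as the limit of detection, 0.231 to 0.350 RPM. Reads outside the oocyte transcripts made up 13.2 to 16.4% in cKO and 9.57 to 9.90% in WT. The summed level of 11 oocyte marker genes was 19217 to 20830 RPM in cKO and 22525 to 24582 RPM in WT. A list of 13 granulosa and cumulus cell markers summed to 78.2 to 90.2 RPM in cKO and 51.2 to 71.8 RPM in WT, with Amh, Foxl2, Inhba, Fst and Has2 under 1 RPM in every library. Most of that sum was Nr5a2 (32.5 to 50.8 RPM in cKO, 27.4 to 28.3 RPM in WT) and Cyp19a1 (19.5 to 30.6 and 17.1 to 27.3 RPM), and Inha had a mean of 8.07 RPM in cKO and 1.71 RPM in WT with overlapping ranges (limma adjusted p = 0.225). The summed level of 7 theca and stroma markers was 6.53 to 8.32 RPM in cKO and 1.94 to 3.27 RPM in WT. That of 4 immune and blood markers was 5.14 to 13.3 and 2.47 to 4.77 RPM. By mean, most of the former sum was Dcn (6.47 RPM in cKO, 1.87 RPM in WT) and most of the latter Cd68 (8.91 and 2.72 RPM). The other markers of these lists did not share a direction. Csf1r (mean 0.280 RPM in cKO, 0.635 RPM in WT), Cyp17a1 and Col1a2 were lower in cKO by mean. Acta2 and Pdgfra were higher, and Col1a1 was about level (0.279 and 0.301 RPM). Lum, Hbb-bs and Hba-a1 were at 0 reads. Of the markers tested, 1 of 11 oocyte genes (Mos) and 0 of 6 granulosa and cumulus genes passed the threshold described below. The 1 theca and stroma gene tested (Dcn) and the 1 immune or blood gene tested (Cd68) also passed. Of all transcripts tested, 5.71% passed. Mos is counted again among the egg activation effectors below. The part of these differences in the results below was not tested. Setd1b itself ran from 2.68 to 16.7 RPM in cKO and from 8.61 to 17.7 RPM in WT (log2 fold change -0.61, SE 0.49, limma adjusted p = 0.533). The value covers the whole transcript rather than the floxed segment, so it does not check the labels.

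Of the calcium handling genes, none was past the threshold between genotypes, which was a Benjamini-Hochberg adjusted p under 0.05 over all 18179 transcripts tested and a change over 2-fold. This held for 0 of 7 and for 0 of 10, against 5.71% of all transcripts tested (3.76% higher and 1.95% lower in cKO). At an unadjusted p under 0.05 there was 1 gene, Trpv3, against 21.7% of all transcripts. At an adjusted p under 0.05 alone there was none, against 6.15% of all transcripts. The RPM of the genotypes was fully separated for Trpv3 alone, 1 of the 7 (14.3%) and 1 of the 10, against 20.3% of all transcripts. All 10 had at least 1 RPM in at least 3 libraries and entered the test. Log2 fold changes, on the scale of log2(RPM + 1), were below 0 for 6 of the 7 and 9 of the 10, with a median of -0.17 over the 7 and -0.15 over the 10. The median of all transcripts tested was 0.12, and 39.7% of them were below 0. On this scale the 95% confidence interval lay within 2-fold in both directions for 5 of the 7 and 8 of the 10, against 42.3% of all transcripts. The exceptions were Trpm7 and Trpv3. Stim1, at 0.350 to 2.75 RPM, was about as low as the 1 RPM added, which shrinks differences at such levels. Its difference was -0.12 here and -0.30 on the deposited scale, so its interval does not exclude a 2-fold change in RPM. Without cKO replicate 4 the medians were -0.082 and -0.099, with 5 of the 7 and 7 of the 10 below 0. When every library was centred on its median gene, the median over the 7 was -0.33 and that of all transcripts -0.03, and with scaling by reads within transcripts they were -0.096 and 0.19.

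**Figure D1:**
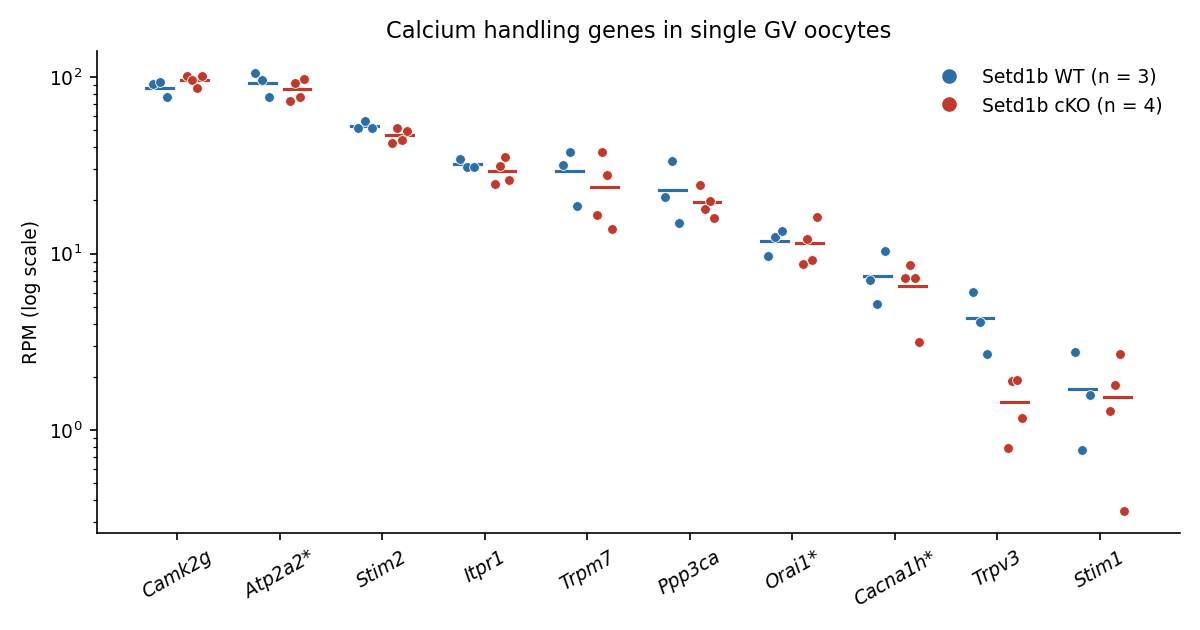
RPM of the calcium handling genes in single GV oocytes, on a log scale. Each point is 1 oocyte (blue, Setd1b WT, n = 3, and red, Setd1b cKO, n = 4), each line is the mean of a genotype, and an asterisk marks a gene matched by its span. The genotypes overlap for all genes but Trpv3, where the cKO oocytes ran from 0.792 to 1.92 RPM and the WT oocytes from 2.71 to 6.07 RPM.

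The promoters were compared first by their CpG content, because H3K4 trimethylation is deposited preferentially at CpG islands. In oocytes the study tied CpG content to another methyltransferase, MLL2, and SETD1B to active promoters. In its Setd1b cKO oocytes, regions that gained the mark were richer in CpG than random regions, and regions that lost it were poorer. The mark at the genes described here was not tested. In the 250 bases before the RefSeq start site, the dinucleotide CG was counted. The letters read alike on both strands. Of 32851 entries of the RefSeq table (GRCm38.p6), 92.1% held at least 1 CG and the median was 6, with quartiles of 2 and 16. An entry was found for 5 of the 10 genes (Trpm7, Trpv3, Stim1, Stim2 and Orai1). Trpv3 held 3 CG, a number that 71.0% of all entries reached. Trpm7 held 26 (reached by 9.59%), Stim2 and Orai1 held 30 each (5.94%) and Stim1 held 31 (5.19%). The windows of Trpv3 (chr11:73267270-73267519, plus strand), Stim1 (chr7:102267569-102267818, plus strand) and Stim2 (chr5:53998273-53998522, plus strand) are printed to show a CpG-poor window beside the CpG-rich windows of a pair of paralogues, with every CG in capitals.
Trpv3: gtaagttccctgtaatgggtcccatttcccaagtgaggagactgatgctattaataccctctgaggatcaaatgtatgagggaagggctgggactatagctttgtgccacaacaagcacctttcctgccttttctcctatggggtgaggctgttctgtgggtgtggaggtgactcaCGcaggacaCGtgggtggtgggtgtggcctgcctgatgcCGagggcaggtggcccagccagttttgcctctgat
Stim1: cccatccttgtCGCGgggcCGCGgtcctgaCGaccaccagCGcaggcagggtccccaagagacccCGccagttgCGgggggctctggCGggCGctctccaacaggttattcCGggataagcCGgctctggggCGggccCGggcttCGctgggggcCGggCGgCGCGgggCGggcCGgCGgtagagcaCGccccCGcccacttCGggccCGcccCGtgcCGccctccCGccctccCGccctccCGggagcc
Stim2: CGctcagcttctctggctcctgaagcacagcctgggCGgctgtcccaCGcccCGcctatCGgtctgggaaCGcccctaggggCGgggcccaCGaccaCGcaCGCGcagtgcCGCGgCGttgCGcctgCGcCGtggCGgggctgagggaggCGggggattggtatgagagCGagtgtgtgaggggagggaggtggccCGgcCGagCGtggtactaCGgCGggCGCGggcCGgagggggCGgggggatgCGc
The Trpv3 and Stim1 windows lay inside the oocyte transcripts, which began 617 and 543 bp from the RefSeq starts. The distance was 106 bp for Stim2, so of the 3 printed windows that of Stim2 lay closest to the start of transcription in the oocyte. For Trpm7 and Orai1, whose windows are not printed, the distance was 104 and 133 bp.

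**Figure D2:**
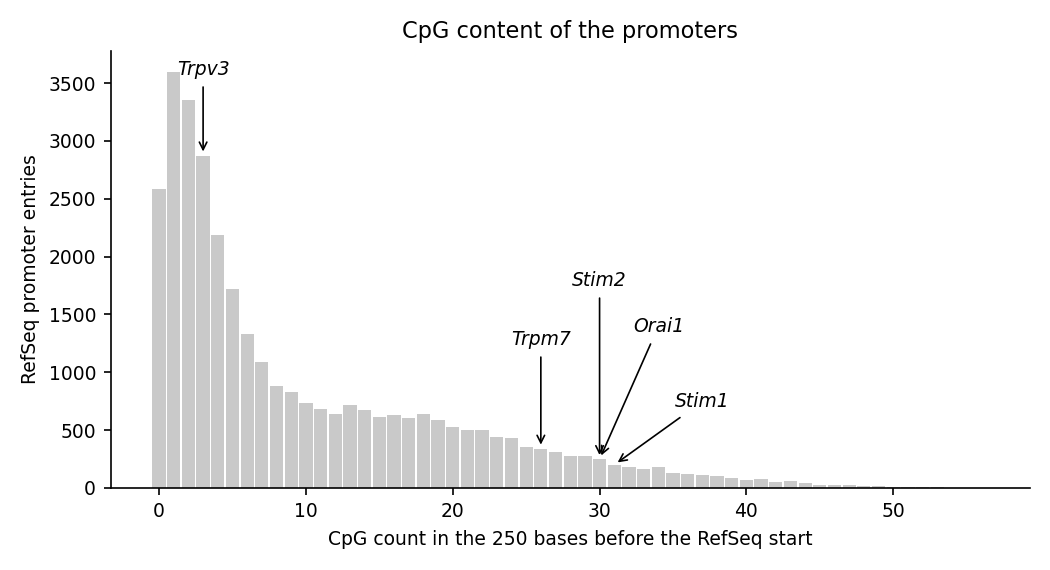
Number of RefSeq promoter entries (vertical axis) by the count of CG in the 250 bases before the start site (horizontal axis), with the calcium handling genes that have an entry marked by arrows. Trpv3, with 3, sits among the most frequent counts, and Trpm7, Stim1, Stim2 and Orai1, with 26 to 31, sit in the upper tail.

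Itpr1 encodes the type 1 IP3 receptor, the release channel of the oocyte ER, and lies on chromosome 6 (ENSMUSG00000030102, GRCm38 chr6:108213095-108551362, plus strand). Its RPM was 24.6, 31.4, 35.4 and 26.0 in the cKO oocytes and 34.1, 31.0 and 30.8 in the WT oocytes. The values overlapped, and the cKO oocytes held both the lowest and the highest. The mean was 29.4 ± 4.99 RPM in cKO (SD, n = 4) and 32.0 ± 1.86 RPM in WT (SD, n = 3). On the log2 scale the difference was -0.13 (SE 0.22; limma, adjusted p = 0.791), with a 95% confidence interval of -0.61 to 0.35, so cKO levels under 0.655 times the WT level lay outside the interval.

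Influx was represented by several channels. Trpm7, a divalent cation channel fused to a kinase and a main route of calcium into the egg (ENSMUSG00000027365, chr2:126791561-126876365, minus strand), had 16.4, 37.7, 27.8 and 13.7 RPM in the cKO oocytes and 31.6, 37.6 and 18.6 RPM in the WT oocytes. Its range was wide within both genotypes and the ranges nearly coincided at the top. The fitted log2 fold change was -0.33 (SE 0.37 and an adjusted p of 0.671 in limma, 95% interval -1.14 to 0.48), so a 2-fold loss was not outside what these oocytes allow. With 1 library left out in turn the difference ran from -0.62 to -0.12.

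Within each genotype the order of the Trpm7 values was the order of the libraries by mapped reads, although RPM is scaled for depth. Over the 7 libraries Pearson's r between RPM and mapped reads was 0.933 (exact permutation p = 0.00198, 0.0198 adjusted over the 10 genes) and Spearman's rho 0.893 (exact permutation p = 0.0123, adjusted 0.123). Without cKO replicate 4 and WT replicate 2, the libraries farthest from the median depth, r was 0.940. This relation was noticed after the values had been seen, and 2.42% of all transcripts tested had a rho at least as high.

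Cacna1h encodes the pore of the T-type channel CaV3.2, which carries calcium into the maturing oocyte (ENSMUSG00000024112, chr17:25374285-25433794, minus strand). It had 7.22, 8.65, 7.31 and 3.15 RPM in the cKO oocytes and 7.05, 5.16 and 10.3 RPM in the WT oocytes. The genotypes overlapped in part (log2 fold change -0.19, SE 0.35, limma adjusted p = 0.819). The cKO replicate 4 oocyte lay below every WT oocyte and the WT replicate 3 oocyte above every cKO oocyte. The sign of this difference rested on single oocytes, since it was 0.079 without cKO replicate 4 and 0.038 without WT replicate 3.

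Trpv3, a cation channel that lets calcium and strontium into the mature egg (ENSMUSG00000043029, chr11:73266903-73300366, plus strand), had 0.792, 1.89, 1.92 and 1.17 RPM in the cKO oocytes, from 8, 23, 22 and 10 reads. The WT oocytes had 6.07, 4.09 and 2.71 RPM, from 75, 53 and 29 reads. Every cKO oocyte lay below every WT oocyte, with means of 1.44 ± 0.556 RPM (SD, n = 4) and 4.29 ± 1.69 RPM (SD, n = 3), the latter 2.98 times the former. The log2 fold change was -1.10 (SE 0.33, 95% interval -1.82 to -0.38), and the limma p of 0.00661 became 0.0763 after adjustment over all transcripts, short of the threshold. The exact permutation p, two-sided, was 0.0571, the smallest that 4 against 3 libraries can give.

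The call for Trpv3 depended on the settings. It was past the threshold after centring each library on its median gene (-1.25, limma adjusted p = 0.0403), after quantile normalisation (-1.31, 0.0378), with library quality weights (-1.19, 0.0245) and without cKO replicate 4 and WT replicate 3 (-1.28, 0.0421). Scaling by reads within transcripts did not bring it past (0.0831), and without WT replicate 1 its adjusted p was 0.264. Its relation to depth was not past 0.05 after adjustment, with r = 0.681 (exact permutation p = 0.0532) and rho = 0.786 (exact permutation p = 0.0480), adjusted to 0.266 and 0.160 over the 10 genes, and r was 0.649 without cKO replicate 4 and WT replicate 2. Of the other 8 genes Stim2 had the highest rho (0.821, exact permutation p = 0.0341) and Itpr1 the highest r (0.708, exact permutation p = 0.0980), adjusted to 0.160 and 0.327. The part of depth in the difference was not tested.

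**Figure D3:**
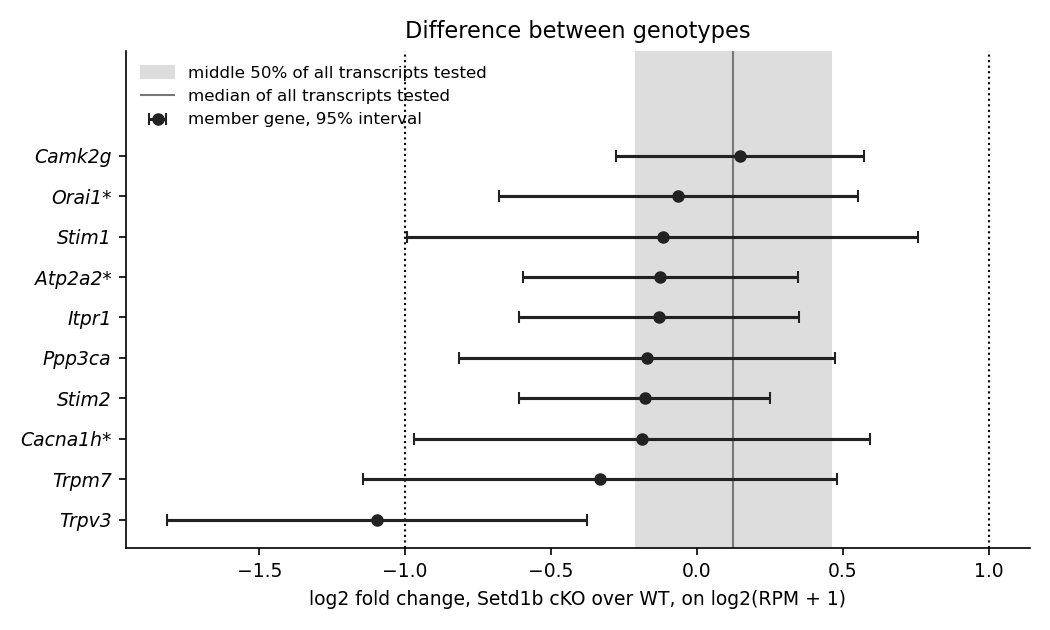
Log2 fold change of each calcium handling gene, Setd1b cKO over WT, on log2(RPM + 1), with its 95% confidence interval (bars) from limma. The line and the grey band give the median (0.12) and the middle 50% (-0.21 to 0.46) of all transcripts tested, the dotted lines mark 2-fold, and an asterisk marks a gene matched by its span. The interval of Trpv3 is the only one that lies wholly below 0.

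Refilling of the store showed no difference past the threshold. Atp2a2 encodes SERCA2, the pump that returns calcium to the ER (ENSMUSG00000029467, chr5:122442702-122502225, minus strand). It was at 73.2, 92.2, 76.6 and 98.0 RPM in the cKO oocytes and at 106, 96.7 and 76.5 RPM in the WT oocytes, ranges that overlapped widely. Between genotypes Atp2a2 differed by -0.13 on the log2 scale (SE 0.21; limma, adjusted p = 0.797, 95% interval -0.60 to 0.35). A transcript on the opposite strand overlapped 7682 bp of it, and the kit does not mark strand, so reads there cannot be told apart.

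The ER calcium sensors STIM1 and STIM2 open the plasma membrane channel ORAI1 when the store runs low. Stim2 (ENSMUSG00000039156, chr5:53998417-54121057, plus strand) had 42.3, 51.5, 44.1 and 49.5 RPM in cKO and 51.6, 56.1 and 51.3 RPM in WT. The ranges met only between cKO replicate 2 and WT replicate 3, and the difference was small (log2 fold change -0.18, SE 0.19, limma adjusted p = 0.665, 95% interval -0.61 to 0.25). Stim1 (ENSMUSG00000030987, chr7:102267276-102437315, plus strand) had only 1.29, 1.81, 2.70 and 0.350 RPM in cKO and 2.75, 0.771 and 1.59 RPM in WT, from 3 to 34 reads. In cKO replicate 4 it stood at the limit of 3 reads, and at this depth its interval ran from -0.99 to 0.76 around a value of -0.12 (limma adjusted p = 0.907).

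Orai1 (ENSMUSG00000049686, chr5:123014941-123030450, plus strand) lies on the same chromosome as Setd1b, its end 111743 bp from the start of the Setd1b transcript. It had 8.71, 12.1, 9.14 and 16.1 RPM in cKO and 9.64, 12.4 and 13.5 RPM in WT, and the cKO oocytes spanned the WT range (log2 fold change -0.06, SE 0.28, limma adjusted p = 0.929). The 95% interval was -0.68 to 0.55.

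Camk2g encodes the calmodulin-dependent kinase II isoform that ends the metaphase arrest (ENSMUSG00000021820, chr14:20734848-20794118, minus strand) and was the one gene with a log2 fold change above 0. It had 102, 96.4, 86.6 and 101 RPM in the cKO oocytes and 90.7, 94.0 and 76.6 RPM in the WT oocytes. The ranges overlapped, with means of 96.5 ± 6.98 RPM (SD, n = 4) and 87.1 ± 9.22 RPM (SD, n = 3). Camk2g thus differed by 0.15 on the log2 scale (SE 0.19; limma, adjusted p = 0.726, 95% interval -0.28 to 0.57), and it was -0.0069 after centring on the median gene, which moves all transcripts alike, and above 0 under the other alternatives.

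Ppp3ca encodes a catalytic subunit of calcineurin, the calmodulin-dependent phosphatase (ENSMUSG00000028161, chr3:136670113-136940049, plus strand). It had 24.5, 17.9, 19.9 and 15.8 RPM in cKO and 20.8, 33.2 and 15.0 RPM in WT. WT replicate 2 stood above all other oocytes, and without it the difference of -0.17 on the log2 scale (SE 0.29; limma, adjusted p = 0.797) became 0.12.

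The genes differed far more from each other than between genotypes. Per kilobase of exon, which allows levels of different genes to be compared, Atp2a2 (14.5 RPM per kb, mean of the 7 libraries) and Camk2g (14.4) were highest, and their ranges overlapped. Stim2 (9.64) and Orai1 (5.08) followed, each with a range apart from its neighbours. Trpm7 (2.32), Ppp3ca (2.11) and Itpr1 (1.66) formed the next step, in which neighbours overlapped. Cacna1h (0.715), Trpv3 (0.456) and Stim1 (0.155) were lowest, again with overlapping neighbours over the 7 libraries. By genotype Trpv3 had a mean of 0.735 RPM per kb in WT and 0.247 in cKO, and Stim1 of 0.164 and 0.148. The pump and the kinase were thus carried at higher levels than the influx channels among the 10 genes. The highest of these channels, Orai1, reached 7.01 RPM per kb, and the lowest value of the pump and of the kinase was 12.0. The value of Atp2a2 may hold reads of the transcript on the opposite strand. Without correction for length, Camk2g stood at percentile 89.4 and Stim1 at percentile 12.6 of the mean RPM of all transcripts tested.

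Transcripts on the opposite strand were examined where they ran across the start of a gene. At Camk2g such a transcript (chr14:20792846-20796541, plus strand, 3696 bp, of which 1273 bp lie within Camk2g) had 9.80, 9.80, 16.1 and 15.6 RPM in the cKO oocytes and 5.83, 5.78 and 8.33 RPM in the WT oocytes. Every cKO oocyte lay above every WT oocyte, with means of 12.8 ± 3.51 RPM (SD, n = 4) and 6.65 ± 1.46 RPM (SD, n = 3). The fitted difference was 0.84 on the log2 scale (SE 0.28, 95% interval 0.21 to 1.46), and the limma p of 0.0139 became 0.113 after adjustment, short of the threshold. Of all transcripts tested, 13.2% separated the genotypes in this direction.

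At Itpr1 the transcript across the start (chr6:108211593-108213963, minus strand, 2371 bp, of which 869 bp lie within Itpr1) had 9.11, 10.9, 17.2 and 23.4 RPM in cKO and 8.75, 5.94 and 13.4 RPM in WT. The genotypes overlapped, and the log2 fold change of 0.62 (SE 0.37) had a limma adjusted p of 0.370. The transcript across the start of Trpv3 had 0 reads except 3 in WT replicate 1. The kit does not mark strand and the use of strand in the counting is not stated, so reads in the shared stretches cannot be told apart.

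**Figure D4:**
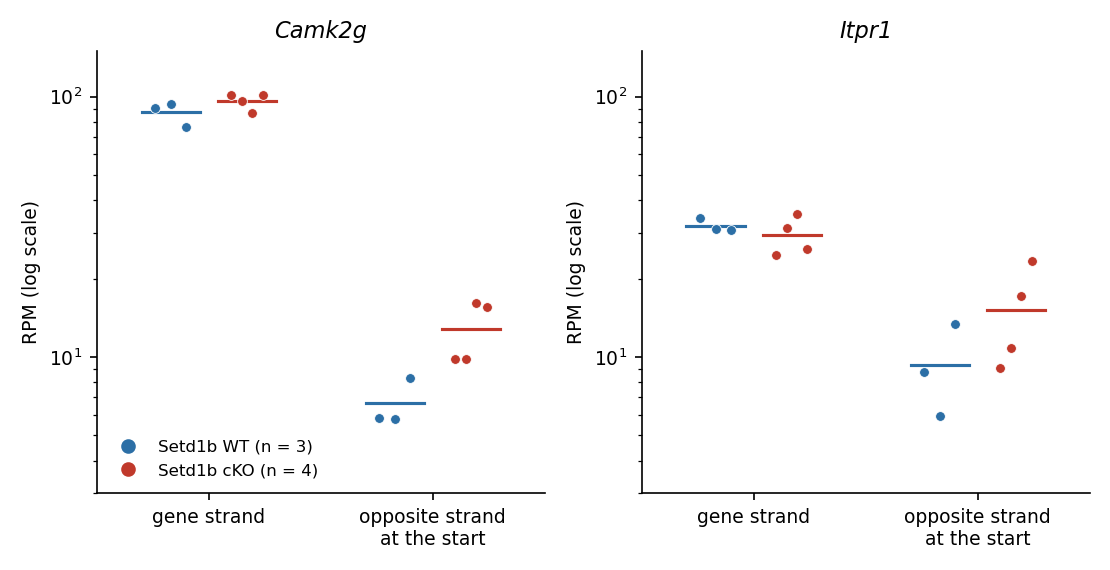
RPM on a log scale of Camk2g and Itpr1 (gene strand) and of the transcript that runs across the start of each on the opposite strand. Each point is 1 oocyte (blue, Setd1b WT, n = 3, and red, Setd1b cKO, n = 4) and each line the mean of a genotype. For Camk2g the opposite strand separates the genotypes (9.80 to 16.1 against 5.78 to 8.33 RPM) while the gene strand overlaps.

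The other genes of the system were read from a list of 167 genes in 8 roles, of which 148 were in the table and 108 entered the test. Trpm2 rose and Calr3, Mos and Mapk3 fell in cKO, and 104 did not pass the threshold, so 3.70% passed against 5.71% of all transcripts. The genotypes did not overlap for 17 of the 108 (15.7%), against 20.3% of all transcripts. Of these, 6 were higher in cKO and 11 lower (13.2% and 7.14% of all transcripts), and the median log2 fold change was -0.03.

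Genes of plasma membrane entry gave the one increase past the threshold. Trpm2, a channel gated by ADP-ribose, had 251, 214, 343 and 409 RPM in the cKO oocytes and 69.0, 46.4 and 87.2 RPM in the WT oocytes. The lowest cKO oocyte lay far above the highest WT oocyte (304 ± 88.1 RPM, SD, n = 4, against 67.5 ± 20.4 RPM, SD, n = 3), with a difference of 2.15 on the log2 scale (SE 0.29; limma, adjusted p = 0.00397). The transcript measured (chr10:77909361-77933031, minus strand) covered 37.7% of the span of the gene and began 37532 bp downstream of its annotated start, so the 5′ portion of Trpm2 lies outside it. Of the other 15 genes of this role tested none passed, the median was 0.28 over all 16, and Saraf, which damps store-operated entry, stood at 0.10 (limma adjusted p = 0.851).

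ER calcium-binding proteins, a role that includes chaperones of the store, had 13 of 14 log2 fold changes below 0 and a median of -0.55. Whether each member buffers calcium was not tested. The count was 9 of 14 without WT replicate 2 and 10 of 14 without cKO replicate 4. Over all alternatives run, this median ran from -0.82 to -0.33. Calr3, a calreticulin known from the testis, was the one member past the threshold. It fell from 149, 137 and 79.8 RPM in the WT oocytes to 58.4, 61.4, 44.4 and 32.5 RPM in the cKO oocytes (log2 fold change -1.28, SE 0.29, limma adjusted p = 0.0295). The call was lost without WT replicate 1, WT replicate 2, cKO replicate 1 or cKO replicate 3, with an adjusted p of up to 0.140. Hsp90b1, the chaperone GRP94, which is named after its value was seen, had an adjusted p of 0.0417 (limma) at a log2 fold change of -0.82 (SE 0.21), short of 2-fold, with 105 ± 10.9 RPM in cKO (SD, n = 4) and 187 ± 30.5 RPM in WT (SD, n = 3). The most abundant members, Canx and Pdia6, stood at -0.15 and -0.95 (limma adjusted p = 0.892 and 0.153). The genotypes did not overlap for 4 of the 14 (28.6%), all lower in cKO, against 7.14% of all transcripts. Among egg activation effectors this was so for 5 of 21 (23.8%), all lower, against the same 7.14%. Plasma membrane entry had 4 of 16 (25%), all higher, against 13.2% of all transcripts higher. ER release had 3 of 12 (25%), 2 of them higher, against 20.3% in either direction. IP3 production had 1 of 13 (7.69%), lower, against 7.14%, and the other 3 roles had none. The counts are small, and their distance from these shares was not tested.

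Effectors of egg activation held the other decreases past the threshold. Mos, the kinase that maintains the metaphase arrest through the MAP kinase cascade, had 196, 204, 163 and 201 RPM in the cKO oocytes and 551, 406 and 500 RPM in the WT oocytes. The genotypes were widely apart, with 191 ± 19.0 RPM (SD, n = 4) against 486 ± 73.3 RPM (SD, n = 3) and a difference of -1.34 on the log2 scale (SE 0.20; limma, adjusted p = 0.00581). The transcript measured spans 14411 bp (chr4:3860066-3874476, minus strand) and runs beyond the annotated gene (chr4:3870657-3872105) on both sides, so reads from outside the annotated gene may be part of the value. Mapk3, which encodes ERK1 of the same cascade, fell from 231, 115 and 166 RPM in WT to 80.2, 85.1, 57.5 and 62.5 RPM in cKO (log2 fold change -1.21, SE 0.27, limma adjusted p = 0.0253). This call was lost without WT replicate 1, WT replicate 3, cKO replicate 1 or cKO replicate 3, with an adjusted p of up to 0.115. Of the 21 effectors tested 19 did not pass, among them the abundant cyclin gene Ccnb1 at -0.24 (limma adjusted p = 0.825), and the median was -0.10.

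In the remaining roles no gene passed the threshold. Calcium pumps and exchangers had 8 of 9 log2 fold changes below 0 and a median of -0.37, with Atp2c1, a pump of the Golgi, at -0.46 and Atp2b1, a pump of the plasma membrane, at -0.51 (limma adjusted p = 0.383 and 0.363). Genes of IP3 production had a median of -0.08 over 13, with the phospholipases Plcb1 at 0.46 and Plce1 at -0.70 (limma adjusted p = 0.272 and 0.196). Genes of ER calcium release had a median of 0.31 over 12. Among these the BCL2 relative Bcl2l10 was the most abundant, with every cKO oocyte below every WT oocyte and a value of -0.68 (limma adjusted p = 0.129), and Itpr2, a second IP3 receptor, stood at -0.41 (0.322).

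Mitochondrial uptake had a median of 0.03 over 11 genes, with the outer membrane channels Vdac3 at 0.03 and Vdac2 at 0.19 (limma adjusted p = 0.949 and 0.701). Calmodulin, its kinases and calcineurin had a median of -0.01 over 12. Calm2, which encodes calmodulin, stood at 0.0068 (limma adjusted p = 0.992). Nfatc1, a transcription factor that calcineurin activates, had the widest difference of this role at 2.06 without passing (limma adjusted p = 0.0836), with overlapping ranges of 1.28 to 15.4 RPM in cKO and 0.308 to 2.43 RPM in WT, and is named after its value was seen. Over all alternatives run, the medians of entry (0.10 to 0.38), ER release (0.15 to 0.44), pumps and exchangers (-0.53 to -0.21) and ER calcium-binding proteins kept their sign, and those of the other 4 roles did not, for mitochondrial uptake only under centring and quantile normalisation, which also lower the median of all transcripts.

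**Figure D5:**
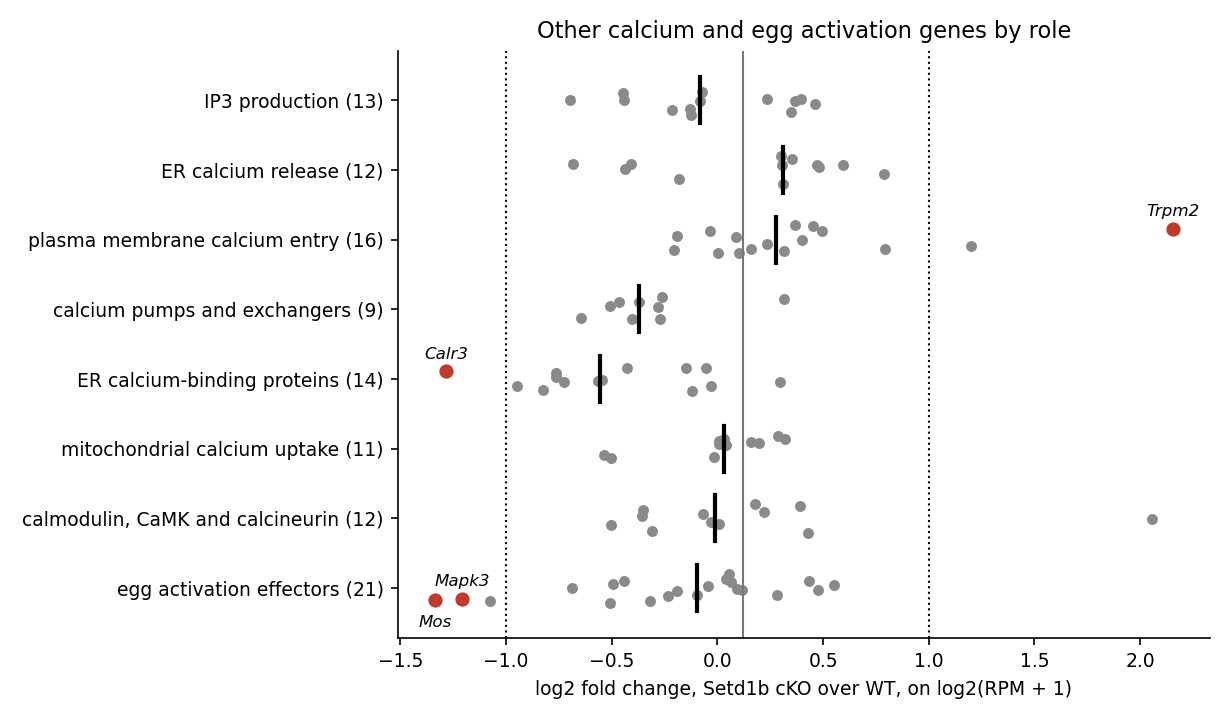
Log2 fold change of the other calcium and egg activation genes, Setd1b cKO over WT, on log2(RPM + 1), by role, with the number of genes tested in brackets. Each point is a gene (red where past the threshold), black bars are the medians by role, the grey line is the median of all transcripts tested (0.12) and the dotted lines mark 2-fold. Trpm2 lies to the right at 2.15, Calr3, Mos and Mapk3 lie at -1.28, -1.34 and -1.21, and most of the pump and ER calcium-binding genes lie left of 0.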

How the data were processed

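The authors picked single GV oocytes, amplified cDNA with the SMARTer kit and sequenced it as single reads. Per the study's methods, reads were trimmed with trim galore, mapped with Hisat to GRCm38 with known splice sites and filtered on mapping quality, and SeqMonk quantified them over oocyte transcripts with merged isoforms. The submitters' processing notes also name bcl2fastq 1.8.4 and featureCounts 1.4.4. The methods mention 1 failed WT library, not analysed here, and list Cre-positive heterozygotes among controls, while the labels of the 3 WT libraries give Cre negative.

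Values were deposited as log2 RPM, relative to mapped reads, with 0.9 read in place of 0 reads. They were turned back into whole reads (100% within 0.1 read). Values were then taken as log2(RPM + 1), 18179 transcripts reaching 1 RPM in 3 or more libraries were tested, and 4 cKO were compared with 3 WT libraries in limma 3.58.1 (R 4.3.3) with lmFit and eBayes with trend, without covariates, and Benjamini-Hochberg adjustment. Because the values are not counts, a count model was used only as an alternative, voom on recovered reads. Python 3.11.15 with scipy 1.17.1 gave the exact permutation tests (two-sided, 35 splits). Confidence intervals come from the limma fit, and the limit of 3 reads covers counting error only. On simulated data with 200 genes changed 4-fold, 99.5% were recovered among 18132 tested, with 0 false calls, and with none changed 0 of 18159 were called. The changed genes had a mean of at least 4 RPM, and the simulated libraries were independent with 1 fixed dispersion. The simulation therefore does not give the power for changes near 2-fold, or for Trpv3 (2.66 RPM) and Stim1 (1.61 RPM). Nor does it give the false calls among libraries that resemble each other. All 10 genes were to be named. Of the other calcium genes, those past the threshold and the 2 most abundant of each role were named, except 1 that is not reported here. Hsp90b1 and Nfatc1 fall outside this rule. Genes and lists were chosen with earlier results of these data known. Span matching used GENCODE M21 and a minimum overlap of 0.5 of the joint span.

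Alternatives were pseudocounts of 0.1 and 5 RPM, the deposited scale, no filter or a mean of at least 4 RPM, centring, quantile normalisation, scaling by reads within transcripts, a replicate block, eBayes robust or without trend, quality weights for libraries, voom, the sum of a gene's rows, an adjusted p under 0.05 or under 0.1 with no fold threshold, and each library left out. All 10 genes together, and cKO replicate 4 and WT replicate 3 left out together, were added after the data had been seen.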

Additional observations from a re-analysis of the deposited data

Results flagged for a closer look

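The transcript on the strand opposite to Orai1, which overlaps it by 140 bp, had 197, 197, 193 and 242 RPM in the cKO oocytes and 154, 147 and 213 RPM in the WT oocytes. The cKO replicate 4 oocyte stood apart from the other cKO oocytes, by 0.920 of the range of the group. Of the 21 values examined in this way chance would place about 1 in 20 past the limit. Between genotypes the log2 fold change was 0.29 (limma adjusted p = 0.490).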

How the results depend on the processing

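Of the calcium handling genes, 0 higher in cKO were past the threshold under every alternative run, and 1 lower, Trpv3, was past it under centring on the median gene, quantile normalisation, library quality weights, with cKO replicate 4 and WT replicate 3 both left out (-1.28, limma adjusted p = 0.0421), and at an adjusted p under 0.1 without a fold. It ranged from -1.59 to -0.52 over 21 alternatives, with adjusted p from 0.0245 to 0.264. Directions were kept under all alternatives for Itpr1, Trpm7, Trpv3, Atp2a2 and Stim2, with leave-one-out ranges of -0.22 to -0.055, -0.62 to -0.12, -1.33 to -0.86, -0.26 to -0.027 and -0.22 to -0.13. The log2 fold change of Cacna1h was 0.13 with quality weights, 0.079 with a replicate block and 0.31 with both libraries left out, that of Stim1 0.10, 0.16 and 0.16, that of Orai1 0.0095 with scaling within transcripts, and that of Camk2g -0.0069 with centring. With single libraries left out, values ran from -0.40 to 0.079 for Cacna1h, -0.39 to 0.16 for Stim1, -0.23 to 0.046 for Orai1 and -0.43 to 0.12 for Ppp3ca. The cause was not tested.

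In the wider list, the count of higher genes, 1, was 2 with scaling within transcripts, with the replicate block and with both libraries left out, 3 with quality weights and at an adjusted p under 0.1, and 1 to 3 with single libraries left out. The count of lower genes, 3, was 1 without a filter, 8 at an adjusted p under 0.1 and 1 to 3 with single libraries left out. Trpm2 and Mos passed under every alternative. Over all transcripts 683 were higher and 355 lower, but after centring 458 and 531, so that the share of higher calls went from 65.8 to 46.3%. Leaving out single libraries gave from 172 and 117 (without WT replicate 2) to 857 and 435 (without cKO replicate 4), with 247 and 153 without WT replicate 1, 317 and 221 without cKO replicate 3 and 379 and 213 without cKO replicate 1, so the shares of all transcripts given as background depend on the libraries too. Replicate numbers did not pair the libraries (correlations of same-numbered deviations 0.192, 0.295 and -0.129). The highest correlation was between cKO replicate 4 and WT replicate 3 (0.608), the shallowest library of each genotype, the libraries also left out together. The replicate block, in which cKO replicate 4 has no partner and adds nothing to the difference, gave the same estimates as leaving that library out, and 924 higher and 479 lower. Trpv3 rested on 63 reads in cKO and 157 in WT, and Stim1 on 69 and 61.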
